A study of Mus musculus with 8 samples.

Results

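The transcripts of 9 chemokine receptors, Ccr1, Ccr2, Ccr6, Ccr7, Cx3cr1, Cxcr2, Cxcr3, Cxcr4 and Cxcr6, were followed in the immune cells of the posterior mouse eye, by cell class, laser injury and genotype. They were chosen by symbol and are 9 of the 32285 genes in the RNA matrices, and 5 of the 87 antibody tags measured in the same cells bind one of their proteins (CD192 for CCR2, CD196 for CCR6, CX3CR1, CD184 for CXCR4 and CD186 for CXCR6). CITE-seq, which reads RNA and antibody-derived tags from the same droplet, was run on live CD45+ cells sorted from posterior eye cups of female mice aged 10 to 12 weeks. There were 4 groups with 1 RNA library and 1 tag library each: WT control and Nr4a1-/- control, without laser, from 22 mice each, and WT laser and Nr4a1-/- laser, from 11 to 12 mice each, on day 3 after 8 laser burns per eye, which induce choroidal neovascularization. Eyes were pooled within each group before sorting, so no value carries a spread between mice and no p-value is given for laser or genotype.

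Nr4a1-/- mice lack the nuclear receptor NUR77, which non-classical monocytes require. The study's methods name C57BL/6J for the WT mice and a B6;129S2 line for the mutants, while the labels give C57BL/6J for all, so strain and genotype cannot be told apart. The genotype and treatment fields of the 4 tag samples all read Nr4a1-/- and sham, against their titles, and these samples were placed by title. The files of the Nr4a1-/- control carry a different number series from those of the other groups. The labels do not say what the number stands for, and whatever it marks cannot be told apart from group in the comparisons that use this library.

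Before filtering, the libraries held 7848548 to 38052948 RNA molecules (unique molecular identifiers, UMIs). After the study's filters, 1649 to 3791 cells remained per library. Nr4a1-/- laser was then the shallowest, at a median of 3676 UMIs per cell against 7618 in WT laser. Nr4a1 stood at 300.3 and 272.2 CPM (UMIs per 1000000 UMIs of the same cells) in WT control and WT laser, and at 88.4 and 51.5 CPM in Nr4a1-/- control and laser. Where the altered part of the gene lies relative to the counted 3' reads is not given in the sources used here. Cells were placed in classes by marker genes that include no chemokine receptor. In all, 9382 of 11223 cells were placed, 557 of the filtered cells lay near the limit between classes, and 16 classes held at least 20 cells in a library. Doublets were limited only by the upper limit on detected genes and by the gate, and 18 barcodes occurred in more than 1 library. Non-classical monocyte-like cells numbered 201 and 131 in the WT libraries but 3 and 0 in the Nr4a1-/- libraries, so that class has no Nr4a1-/- value. Gamma-delta T-like and migratory DC-like cells reached 20 only in WT laser, and Spp1 macrophage-like cells only in the laser libraries.

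Chemokine receptors are G protein-coupled receptors through which leukocytes follow gradients of small secreted ligands. CCR2 draws classical monocytes out of bone marrow towards CCL2 and related ligands, CX3CR1 is the fractalkine receptor that marks microglia and patrolling monocytes, and CCR1 binds CCL3 and CCL5 on myeloid cells. CXCR2 brings neutrophils to CXCL1 and CXCL2, CXCR4 answers CXCL12, CCR7 guides dendritic and naive lymphoid cells to lymph nodes, CCR6 binds CCL20, and CXCR3 and CXCR6 mark T cells that have entered tissues.

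Ccr1, Ccr2 and Cxcr6 lie near each other on mouse chromosome 9 (GRCm38). Of the 10 laser differences seen in both genotypes, given further on, 9 belonged to these genes. Most of the 9 were Ccr2 and Cxcr6 in CD4, CD8 and unsplit T-like cells, all split from 1 T cell gate. With every cell thinned to 2000 UMIs, 3 of the 10 remained. The 9 were not set against the share of these genes among the 53 pairs measured in both genotypes, and a part of their position was not tested. The annotation places Cxcr6 at chr9:123806475-123811760 on the plus strand, overlapping Fyco1 on the opposite strand, Ccr1 at chr9:123962124-123968692 on the minus strand and Ccr2 at chr9:124101950-124113557 on the plus strand, a span of 307.1 kb. The 250 bases before the RefSeq start of each (GRCm38.p6) are shown on the gene's own strand, with searched motifs in capitals. They are shown because these receptors account for most of the laser differences seen in both genotypes.
Cxcr6 promoter, chr9:123806227-123806476, plus strand: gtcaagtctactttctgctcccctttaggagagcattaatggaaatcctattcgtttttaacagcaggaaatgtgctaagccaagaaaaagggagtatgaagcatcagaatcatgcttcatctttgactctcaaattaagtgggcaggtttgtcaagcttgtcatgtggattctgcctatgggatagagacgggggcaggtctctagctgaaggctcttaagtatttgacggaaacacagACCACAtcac
Ccr1 promoter, chr9:123968693-123968942, minus strand: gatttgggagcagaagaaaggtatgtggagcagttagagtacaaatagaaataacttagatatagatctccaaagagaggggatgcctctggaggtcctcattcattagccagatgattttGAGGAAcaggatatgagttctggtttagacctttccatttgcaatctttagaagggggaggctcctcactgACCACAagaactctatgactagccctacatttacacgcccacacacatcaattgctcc
Ccr2 promoter, chr9:124101933-124102182, plus strand: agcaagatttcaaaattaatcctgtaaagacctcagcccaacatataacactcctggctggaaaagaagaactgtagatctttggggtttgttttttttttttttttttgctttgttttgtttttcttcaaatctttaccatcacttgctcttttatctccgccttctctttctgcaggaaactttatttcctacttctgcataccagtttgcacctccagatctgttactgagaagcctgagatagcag
The motifs searched on both strands were AAAGGTCA, the element that NUR77 binds as a monomer, and GAGGAA, a core of the myeloid factor PU.1. Also searched were TGTGGT, the core of RUNX factors, and the hypoxia response core ACGTG. The RefSeq start of Ccr2 lies downstream of the annotated start used above, so the annotated start falls inside the Ccr2 window. AAAGGTCA occurred in none of the promoters of the 8 members that matched RefSeq promoters (Ccr7 did not match) and in 1.34% of 32851 promoters of the same length. TGTGGT, in 14% of all promoters, occurred on the minus strand as ACCACA in the Cxcr6 window and in the Ccr1 window. GAGGAA, in 23.3% of all promoters, occurred in the Ccr1 window, and none of the 4 motifs occurred in the Ccr2 window. A match describes these letters only and says nothing of whether a factor binds.

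The receptors differed in which cell classes held them. Cx3cr1, Cxcr2 and Ccr6 each had 1 leading class. Ccr7 was highest in migratory DC-like cells but also shared among B-like, CD8, CD4 and unsplit T-like cells. Ccr1 and Ccr2 were shared among myeloid cells, Cxcr6 among T-like cells and Cxcr3 among T-like and cDC1-like cells. Cxcr4 was the most widely spread. For each class, UMIs were summed per library and the class was compared with the mean of the other classes by edgeR's quasi-likelihood test over 12262 genes with Benjamini-Hochberg adjustment at 0.05, with the library as a block. All 9 receptors passed the filter on low counts. Of 144 receptor and class pairs, 43 were higher and 46 lower, where 23.1% of all gene and class pairs were higher and 15.3% lower. Each class also differed from the rest in many other genes, with 7.77% (gamma-delta T-like) to 35.5% (microglia-like) of all genes called higher, so a call by itself is common and the sizes below carry the information. Levels of different receptors were not compared with each other, since the 3' counts carry no length.

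**Figure D1:**
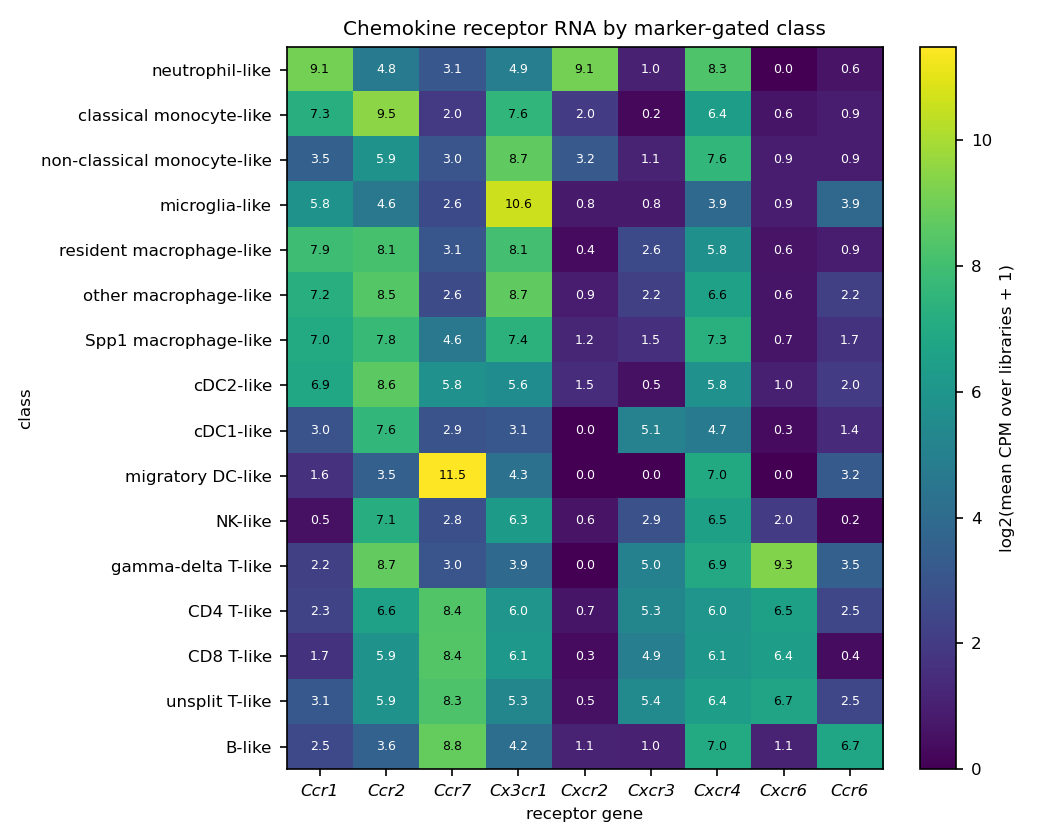
Heatmap of the 9 receptors (columns) in the 16 cell classes (rows), coloured by log2(mean CPM + 1) over the libraries with at least 20 cells of the class. Cxcr2 and Ccr6 each stand out in 1 class, neutrophil-like and B-like, whereas Ccr2 and Cxcr4 are spread over many classes.

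Ccr2 was highest in classical monocyte-like cells. Its level there was 706.4 CPM in the WT control and 828.8 in the Nr4a1-/- control and, after laser, 612.1 in WT and 764.5 in Nr4a1-/-, or 728.0 ± 92.0 (SD, n = 4 libraries). That was 3.40 ± 0.27 (SE) log2 units above the mean of the other classes (edgeR adjusted p = 1.6e-13; 24.2% of all genes were higher in this class). Among classes measured in all libraries cDC2-like cells were next and held 383.0 ± 69.8 CPM (n = 4) and the difference from classical monocyte-like cells did not pass (0.85 ± 0.42 log2 units, edgeR adjusted p = 0.13). Ccr2 was also higher than the class mean in other macrophage-like, resident macrophage-like, cDC1-like and Spp1 macrophage-like cells, by 2.09, 1.68, 1.38 and 1.09 log2 units. Gamma-delta T-like cells of WT laser held 422.7 CPM, a difference of 1.57 log2 units that did not pass (edgeR adjusted p = 0.094). At the low end, B-like cells held 6.48 to 15.1 CPM and microglia-like cells 0.603 to 61.6, both lower than the class mean by 3.32 and 2.45 log2 units. With every cell thinned to 2000 UMIs, 67.1% of classical monocyte-like cells and 0.517% of B-like cells held a Ccr2 UMI. The few B-like UMIs were uneven between cells, with 14 of 23 in 1 cell in the WT control.

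Cx3cr1 was highest in microglia-like cells, with 1752 CPM in the WT control and 1763 in the Nr4a1-/- control and, after laser, 1508 in WT and 1209 in Nr4a1-/-. Microglia-like cells contributed 64.3% of all Cx3cr1 UMIs of the gated cells. The level was 4.69 ± 0.14 log2 units above the mean of the other classes (edgeR adjusted p = 3.7e-32) and 1.90 ± 0.23 above other macrophage-like cells (edgeR adjusted p = 9.4e-09), the next in order. Non-classical monocyte-like cells, from which the other macrophage-like cells did not differ past the threshold, held 433.6 and 393.5 CPM in the WT control and laser libraries. Thinned to 2000 UMIs, 89.8% of microglia-like cells held a Cx3cr1 UMI, against 56.8% of non-classical monocyte-like, 41.1% of other macrophage-like and 2.76% of cDC1-like cells.

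Ccr1 was highest in neutrophil-like cells and then in the macrophages. In neutrophil-like cells it stood at 680.7 CPM in the WT control and 642.4 in the Nr4a1-/- control and, after laser, 512.1 in WT and 323.6 in Nr4a1-/-, 5.19 ± 0.23 log2 units above the class mean (edgeR adjusted p = 3.1e-22). Resident macrophage-like cells, the perivascular and tissue macrophages that express Lyve1 and Mrc1, followed at 243.6 ± 101.3 CPM (n = 4), lower than neutrophil-like cells by 1.31 ± 0.30 log2 units (edgeR adjusted p = 0.00042). Classical monocyte-like, other macrophage-like, Spp1 macrophage-like and cDC2-like cells were also above the class mean, by 2.73 to 3.05 log2 units. By number of UMIs, resident macrophage-like cells contributed 33.3% and neutrophil-like cells 13.7% of all Ccr1 UMIs. NK-like cells had the lowest mean, 0.440 CPM.

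Cxcr2 was concentrated in neutrophil-like cells, which contributed 89.8% of its UMIs. The level in them was 652.5 CPM in the WT control and 782.7 in the Nr4a1-/- control and, after laser, 388.2 in WT and 342.6 in Nr4a1-/-, 8.38 ± 0.15 log2 units above the class mean (edgeR adjusted p = 1.9e-46; 21.8% of all genes were higher in this class). Non-classical monocyte-like cells were the next class at 6.76 and 9.50 CPM in WT control and WT laser, lower than neutrophil-like cells by 6.37 ± 0.41 log2 units.

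Cxcr4 was highest in neutrophil-like cells but present in most classes. Neutrophil-like cells held 228.9 CPM in the WT control and 361.8 in the Nr4a1-/- control and, after laser, 314.8 in WT and 380.7 in Nr4a1-/-, 2.20 log2 units above the class mean. Non-classical monocyte-like cells followed, lower by 0.79 ± 0.22 log2 units (edgeR adjusted p = 0.0041), and among the first 7 classes in the order no other difference between neighbours passed. Spp1 macrophage-like cells, macrophages that express Spp1, Gpnmb and Fabp5, held 167.7 CPM in WT laser and 140.3 in Nr4a1-/- laser, 1.02 log2 units above the class mean (edgeR adjusted p = 1.4e-06). Microglia-like cells held 10.3 to 23.5 CPM and were the lowest class. Mean Cxcr4 was 53.8 CPM in resident macrophage-like and 95.4 in other macrophage-like cells (n = 4 libraries each), against 154.0 in Spp1 macrophage-like cells (n = 2). The low microglia-like level therefore widens the difference that follows. Set against the mean of microglia-like, resident macrophage-like and other macrophage-like cells, Spp1 macrophage-like cells were higher in Cxcr4 by 1.91 ± 0.18 log2 units (edgeR adjusted p = 3.77e-12; 12.4% of all genes were higher and 13.1% lower) and in Ccr7 by 2.19 ± 0.47. The Ccr7 UMIs sat in few of these cells, 76 in 11 of 216 cells of WT laser and 18 in 4 of 105 cells of Nr4a1-/- laser, 13 of the latter in 1 cell. They were lower in Cx3cr1 by 1.54 ± 0.29 log2 units (edgeR adjusted p = 6.2e-05), and Ccr2 differed by 0.63 log2 units without passing (edgeR adjusted p = 0.33).

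Ccr7 was highest in migratory DC-like cells, which held 2870 CPM in WT laser, the only library with at least 20 of them. The others gave 4297 CPM in 5 cells (WT control), 2319 in 4 cells (Nr4a1-/- control) and 2818 in 13 cells (Nr4a1-/- laser). The WT laser value stood 7.08 ± 0.27 log2 units above the class mean (edgeR adjusted p = 2.7e-24) and 3.17 ± 0.42 above B-like cells (edgeR adjusted p = 1.1e-07). With 1 library of this class, the error and p take their spread from the other classes. B-like cells showed a nearly constant level of 438.7 and 431.8 CPM in the controls (WT, then Nr4a1-/-) and 430.9 and 430.8 CPM in the laser libraries. CD8 T-like, CD4 T-like and unsplit T-like cells (with neither co-receptor, or both, detected) followed, and no difference between neighbours among these 4 classes passed. Cells with a Ccr7 UMI made up 95.2% of migratory DC-like cells and 51.8% of B-like cells after thinning. Of all Ccr7 UMIs of the gated cells, B-like cells contributed 37.1% and migratory DC-like cells 20.8%. CD8, CD4 and unsplit T-like cells contributed 18.6%, 8.99% and 8.4%.

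Ccr6 was highest in B-like cells, at 105.7 CPM in the WT control and 81.0 in the Nr4a1-/- control and, after laser, 132.9 in WT and 105.4 in Nr4a1-/-, 4.78 log2 units above the class mean (edgeR adjusted p = 1.6e-32). Microglia-like cells were next, with 13.1 and 15.1 CPM in the controls (WT, then Nr4a1-/-) and 13.1 and 13.2 CPM in the laser libraries, lower than B-like cells by 2.72 ± 0.28 log2 units (edgeR adjusted p = 1.7e-12). The microglial level was low yet nearly constant and stood 1.96 log2 units above the class mean (edgeR adjusted p = 3e-11), and 2.59% of thinned microglia-like cells held a Ccr6 UMI against 15.6% of B-like cells.

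Cxcr6 was highest in T-like cells, and Cxcr3 in T-like and cDC1-like cells. Gamma-delta T-like cells of WT laser held 639.3 CPM of Cxcr6, 6.57 log2 units above the class mean and 1.73 ± 0.31 above unsplit T-like cells (edgeR adjusted p = 0.00013). The class rests on 37 cells of 1 library, so the error and p take their spread from the other classes. CD8 T-like, CD4 T-like and unsplit T-like cells were 4.35 to 4.64 log2 units above the class mean, whereas NK-like cells held 2.10 to 3.36 CPM and CD8 T-like cells exceeded them by 4.83 ± 0.35 log2 units (edgeR adjusted p = 1.8e-16). Cxcr3 had few UMIs in every class, with 12.6 to 45.7 CPM in CD8 T-like cells and 28.6 to 38.4 CPM in cDC1-like cells. Both were above the class mean, by 2.54 and 3.01 log2 units, and no difference between neighbours among the first 7 classes in the Cxcr3 order passed. NK-like cells had no receptor above the class mean and 3 below it (17.9% of all genes were lower in NK-like cells).

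**Figure D2:**
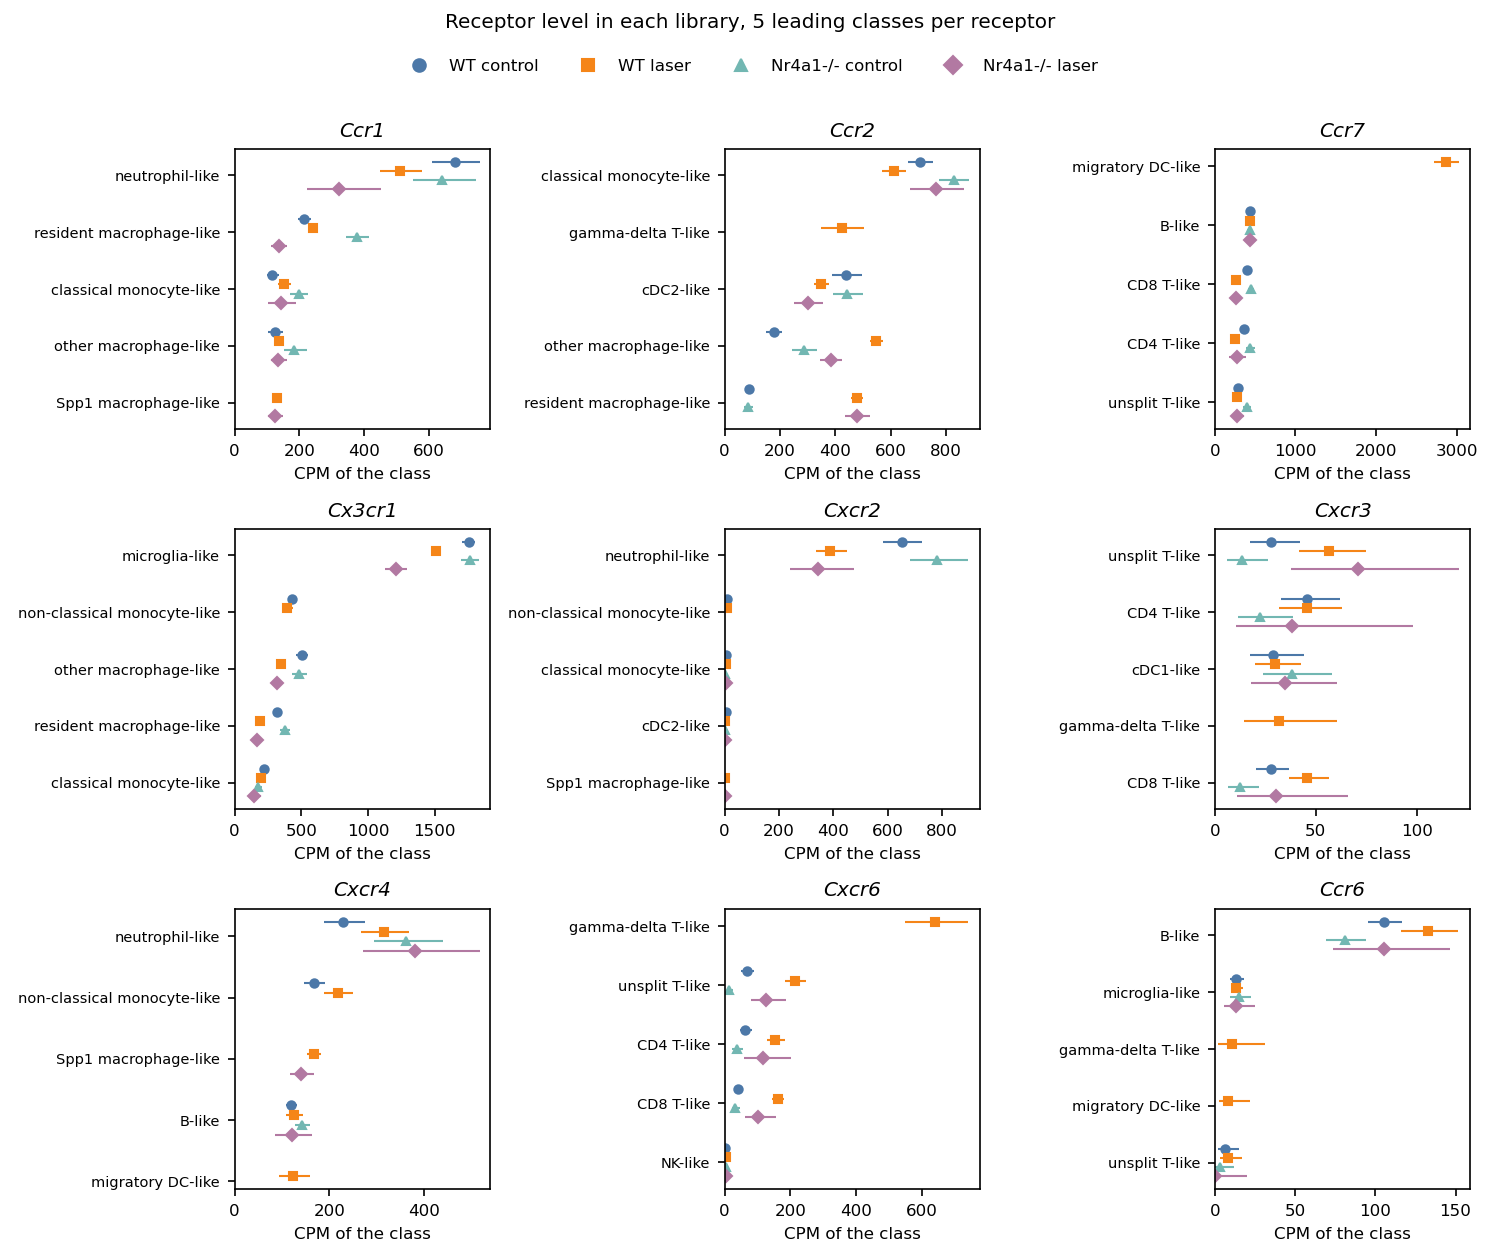
CPM of each receptor in its 5 leading classes, with 1 point per library and exact 95% counting intervals. Ccr7 in B-like cells lies between 430.8 and 438.7 CPM in the 4 libraries, whereas Ccr2 in resident macrophage-like cells lies at 84.5 and 88.5 CPM in the control libraries and at 477.8 and 479.9 CPM in the laser libraries.

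Within single T-like cells, Cxcr6 and Ccr7 tended to occur in different cells. Over CD4, CD8 and unsplit T-like cells thinned to 2000 UMIs, 7.10% of the 183 cells with a Cxcr6 UMI also held a Ccr7 UMI (exact 95% interval 3.84 to 11.8%), against 39.7% of the 1393 cells without one (37.1 to 42.3%). The same order was found in WT control (10.0% of 40 against 44.4% of 514 cells), WT laser (4.55% of 110 against 32.0% of 438) and Nr4a1-/- laser (10.0% of 20 against 33.1% of 118). Nr4a1-/- control had fewer than 20 cells with a Cxcr6 UMI and gives no value of its own. Ccr2 showed the opposite order, with 25.7% of cells with a Cxcr6 UMI and 6.96% of those without. Cxcr3 was found in 22 of the 183 cells with a Cxcr6 UMI and in 5.38% of the cells without. The cells of a library are not replicates, so these intervals cover counting error only.

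**Figure D3:**
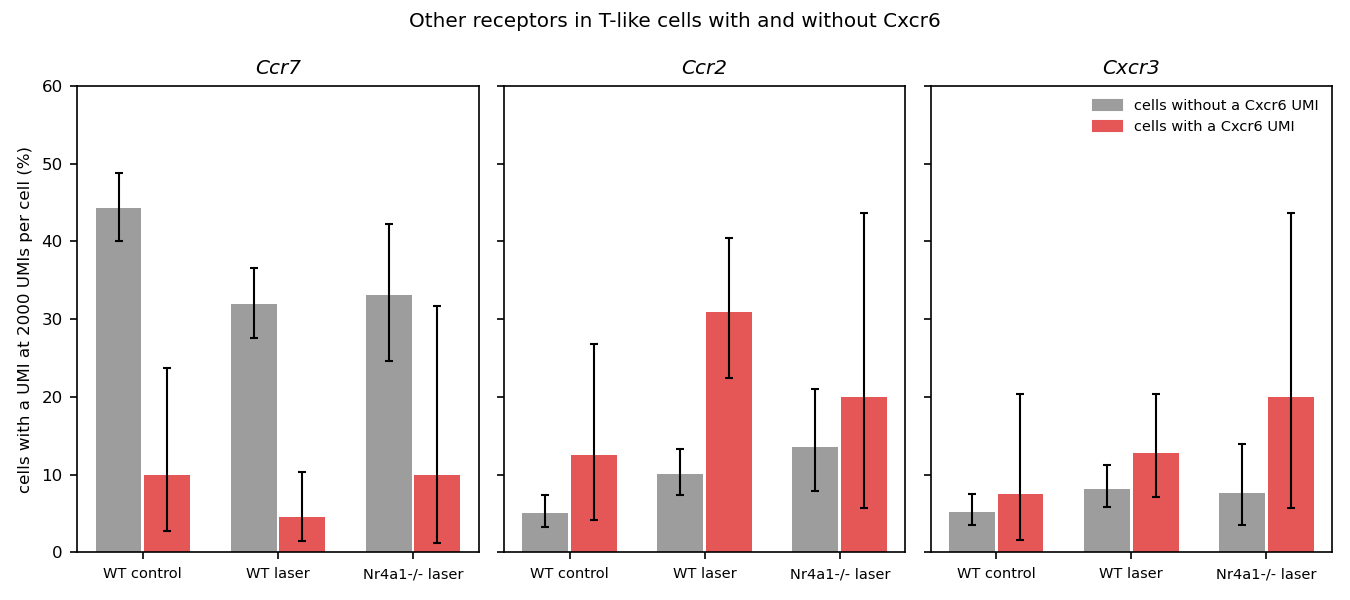
Percent of T-like cells (CD4, CD8 and unsplit, thinned to 2000 UMIs) with a UMI of Ccr7, Ccr2 or Cxcr3, in cells with and without a Cxcr6 UMI, in the 3 libraries with at least 20 cells with a Cxcr6 UMI; bars start at 0 and lines are exact 95% intervals. In each of these libraries Ccr7 was found less often, and Ccr2 and Cxcr3 more often, in the cells with a Cxcr6 UMI, though the Cxcr3 intervals overlap in all 3 libraries, the Ccr2 intervals in WT control and Nr4a1-/- laser, and the Ccr7 intervals in Nr4a1-/- laser.

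The comparison of laser with control asks which receptors the cells of each class carry 3 days after injury. With 1 library per group, each value is the ratio of the 2 CPM with an exact 95% binomial interval for counting error, and a pair was counted as changed where the ratio was at least 2-fold, the interval left out 1 and the 2 libraries together held at least 20 UMIs. In WT, 16 of 67 measured receptor and class pairs were higher after laser and 0 lower, where 4.05% and 3.22% of all gene and class pairs were. In Nr4a1-/-, 12 of 53 were higher and 4 lower, where 4% and 3.8% of all pairs were. Of the 53 pairs measured in both genotypes, 10 were higher in both (18.9%, against 1.02% of all gene and class pairs) and 0 were lower in both (0.696% of all pairs). These 10 were Ccr2 in 5 classes, Cxcr6 in 3, and Ccr1 and Cxcr3 in 1 class each.

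Ccr2 in resident macrophage-like cells was 88.5 CPM in the WT control and 84.5 in the Nr4a1-/- control and, after laser, 477.8 in WT and 479.9 in Nr4a1-/-. The laser libraries lay far above both controls, by 5.40-fold in WT (interval 4.64 to 6.31) and 5.68-fold in Nr4a1-/- (4.54 to 7.16). The share of these cells with a Ccr2 UMI, thinned to 2000 UMIs, was 9.30% in the WT control and 8.39% in the Nr4a1-/- control and, after laser, 41.2% in WT and 44.0% in Nr4a1-/-. In the same cells the summed level of the 8 Spp1 macrophage markers went from 110.2 to 589.4 CPM in WT and from 161.1 to 522.3 in Nr4a1-/-, where Mmp12 and Arg1 were at 0 in both libraries. That of the 10 classical monocyte markers went from 2240 to 1956 CPM and from 1840 to 2194, and that of the class's own 8 markers went from 7203 to 5116 and from 7849 to 6092. Whether cells of another origin entered the gate was not tested.

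Ccr2 was also higher in all T-like classes that were measured in both pairs. In CD8 T-like cells it was 23.1 CPM in the WT control and 22.1 in the Nr4a1-/- control and, after laser, 76.7 in WT and 106.5 in Nr4a1-/-, ratios of 3.33 (2.32 to 4.87) and 4.82 (2.50 to 9.27). CD4 T-like cells gave 2.65 (1.83 to 3.89) and 2.68 (1.37 to 5.06), and unsplit T-like cells 2.22 (1.46 to 3.43) and 2.21 (1.004 to 4.72). The last of these intervals came close to 1. In microglia-like cells, where Ccr2 in the controls was within or below the B-like range, it was 6.73 CPM in the WT control and 0.603 in the Nr4a1-/- control and, after laser, 25.3 in WT and 61.6 in Nr4a1-/-. The WT ratio was 3.75 (2.28 to 6.496), but 1.56 and no longer called with classes from clusters and 15.9 under a stricter gate. The Nr4a1-/- ratio of 102 rests on 1 UMI in control and has an interval of 17.4 to 4131. The summed level of the classical monocyte markers in microglia-like cells moved the same way, from 56.7 to 108.5 CPM in WT and from 27.1 to 302.2 in Nr4a1-/-, with Chil3, Fn1 and Ifitm6 at 0 in Nr4a1-/- control and Ly6c2 and Vcan among those at 0 in Nr4a1-/- laser. Their part in the Ccr2 values was not tested.

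Cxcr6 in CD8 T-like cells was 40.8 CPM in the WT control and 32.6 in the Nr4a1-/- control and, after laser, 161.8 in WT and 101.4 in Nr4a1-/-. Both laser libraries were above both controls, 3.97-fold (3.05 to 5.23) and 3.11-fold (1.68 to 5.63), and 7.52% and 5.67% of thinned cells held a UMI in the WT and Nr4a1-/- controls against 23.7% and 10.2% after laser. In CD4 T-like cells the ratios were 2.43 and 3.12, and in unsplit T-like cells 3.18 and 9.30. The unsplit T-like level was 67.4 CPM in the WT control and 13.5 in the Nr4a1-/- control and, after laser, 214.0 in WT and 125.1 in Nr4a1-/-, the Nr4a1-/- control resting on 8 UMIs. Cxcr3 in unsplit T-like cells went from 28.0 to 56.5 CPM in WT and from 13.5 to 70.7 in Nr4a1-/-, ratios of 2.02 (1.20 to 3.51) and 5.25 (2.02 to 14.6). The 10 common macrophage markers, summed, went from 157.8 to 414.5 CPM in WT and from 120 to 278.8 in Nr4a1-/- CD8 T-like cells, with Adgre1, Fcgr1 and Ms4a7 at 0 in Nr4a1-/- laser. The 8 gamma-delta T markers went from 77.5 to 148.2 and from 63.9 to 174 CPM in unsplit T-like cells. Their part in the Ccr2, Cxcr6 and Cxcr3 values was not tested.

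Ccr1 in microglia-like cells was 18.8 CPM in the WT control and 34.4 in the Nr4a1-/- control and, after laser, 87.6 in WT and 85.1 in Nr4a1-/-. The laser libraries were close to each other and above the controls, by 4.67-fold (3.49 to 6.36) and 2.48-fold (1.69 to 3.63). The Nr4a1-/- ratio was no longer called after thinning (1.45) or under the stricter gate (1.83). Thinned microglia-like cells with a Ccr1 UMI made up 3.98% and 5.29% in the WT and Nr4a1-/- controls and 14.8% and 9.84% after laser. The dissociation stress markers in these cells, summed, went from 18060 to 7567 CPM in WT and from 20220 to 9227 CPM in Nr4a1-/-, and their part in the Ccr1 values was not tested.

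**Figure D4:**
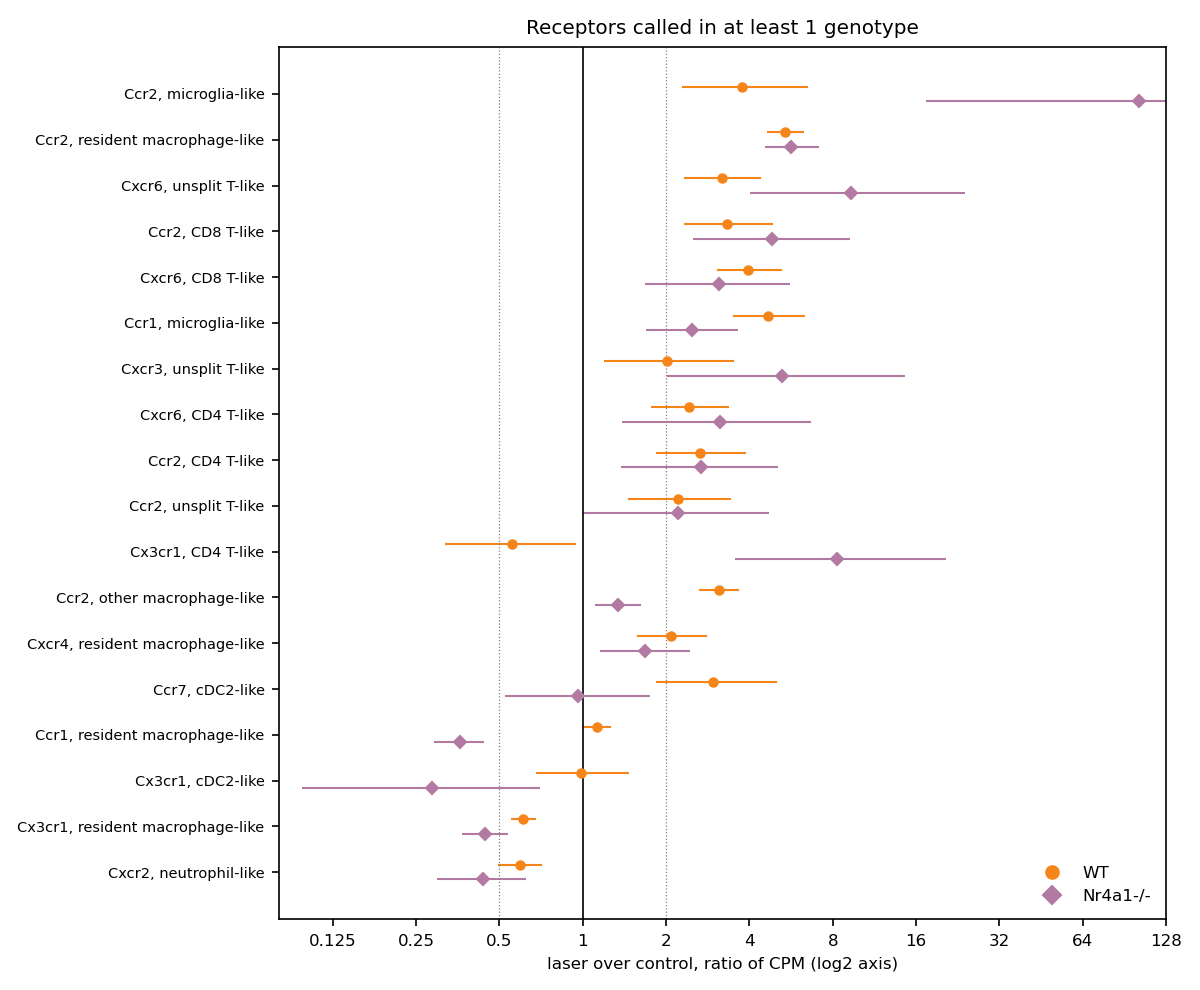
Ratio of CPM in laser over control on a log2 axis for 18 receptor and class pairs past the rule in at least 1 genotype, of 53 measured in both, with 1 point per genotype and exact 95% counting intervals. Points of both genotypes lie at or above 2 for the 10 pairs higher in both. Cx3cr1 in CD4 T-like cells and Ccr1 in resident macrophage-like cells lie on opposite sides of 1, with intervals that leave out 1 in each genotype. Ccr7 in cDC2-like cells also has points on both sides, the Nr4a1-/- point just below 1. The Nr4a1-/- interval of Ccr2 in microglia-like cells runs past the right edge, to 4131. Ccr7 in resident macrophage-like cells, past the rule in Nr4a1-/-, is not drawn because its control held 0 UMIs.

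Other pairs passed in 1 genotype, and that the genotypes differ was not tested. In WT, Ccr2 in other macrophage-like cells went from 177.3 to 548.7 CPM (3.09-fold, 2.63 to 3.66), with 286.5 and 383.1 CPM in Nr4a1-/- control and laser (1.34-fold). Cxcr4 in resident macrophage-like cells went from 29.3 to 61.1 CPM in WT (2.08-fold) and from 46.7 to 78.1 in Nr4a1-/-. Ccr7 in cDC2-like cells went from 31.0 to 91.8 CPM in WT (2.96-fold), with 49.0 and 47.2 in Nr4a1-/-. The remaining WT values were Cxcr3 in NK-like cells (4.31), Ccr1 in non-classical monocyte-like cells (3.01) and Ccr2 in neutrophil-like cells (2.96), the last with 16 of its 17 laser UMIs in 1 cell. In Nr4a1-/-, Ccr7 in resident macrophage-like cells had 20 UMIs in 8 laser cells and 0 in control, at least 8.45-fold higher against a floor of 3 counts per library.

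In neutrophil-like cells Cxcr2 was lower in both laser libraries. The ratio was 0.595 (0.494 to 0.715) in WT, short of 2-fold, and 0.438 (0.299 to 0.626) in Nr4a1-/-, where it passed. The 10 neutrophil markers, summed, went in the same cells from 127100 to 85940 CPM in WT and from 108800 to 44540 in Nr4a1-/-, and 8.81% of all genes were lower after laser in Nr4a1-/- neutrophil-like cells. Also lower in Nr4a1-/- were Ccr1 and Cx3cr1 in resident macrophage-like cells, with ratios of 0.359 (0.291 to 0.440) and 0.445 (0.367 to 0.537), and Cx3cr1 in cDC2-like cells (0.285), which had 6 UMIs in laser. Cx3cr1 in resident macrophage-like cells stood at 316.5 CPM in the WT control and 378.6 in the Nr4a1-/- control and, after laser, 193.3 in WT and 168.5 in Nr4a1-/-, so both laser libraries were below both controls.

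The comparison of Nr4a1-/- with WT asks whether the receptors differ without NUR77. In control, 0 of 57 receptor and class pairs were higher and 5 lower (1.6% and 2.16% of all gene and class pairs), and in laser 4 of 65 were higher and 3 lower (2.22% and 2.32%). No pair of the 55 measured in both treatments passed in the same direction in both, where 0.0855% of all pairs were higher and 0.213% lower in both. The control differences were Cxcr6 in unsplit T-like cells, at 13.5 against 67.4 CPM (0.200, interval 0.0820 to 0.423), Cxcr3 in CD8 T-like (0.455) and CD4 T-like cells (0.484), Cx3cr1 in CD4 T-like cells (0.369) and Ccr2 in microglia-like cells. The last had 1 UMI in Nr4a1-/- against 19 in WT, a ratio of 0.0896 with an interval of 0.00216 to 0.563. All of these use the Nr4a1-/- control library.

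In laser, Ccr2 in Spp1 macrophage-like cells was lower in Nr4a1-/-, at 145.0 against 293.8 CPM (0.493, interval 0.406 to 0.596). Ccr2 in microglia-like cells was higher, at 61.6 against 25.3 CPM (2.44), as was Cxcr4 in the same cells at 23.5 against 11.1 CPM (2.12, interval 1.11 to 3.84). The others were Ccr7 in resident macrophage-like cells (4.97), Cx3cr1 in CD4 T-like cells (5.52), Cx3cr1 in cDC2-like cells (0.214), and Cxcr3 in NK-like cells, which had 0 UMIs in Nr4a1-/- against 23 in WT and was at least 1.495-fold lower against a floor of 3 counts. That bound falls short of 2-fold, so the pair passed on its ratio of 0 and not on its bound, and 2 pairs are lower without it. With classes from clusters, Ccr2 in Spp1 macrophage-like (0.764), Cxcr4 in microglia-like (1.003) and Cx3cr1 in cDC2-like cells (0.802) no longer passed. The clusters gave no cDC1-like or other macrophage-like class, so their classes hold other mixtures of cells. By clusters, Spp1 macrophage-like cells numbered 559 in place of 346, microglia-like 1436 in place of 1158 and cDC2-like 817 in place of 290. In the classes that led each receptor, Ccr2 in classical monocyte-like, Cx3cr1 in microglia-like, Cxcr2 in neutrophil-like and Ccr6 in B-like cells stayed within 2-fold between genotypes in control and in laser.

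The other genes of the pathway were counted by the same rule, as lists of ligands, other receptors and signalling genes. Of 98 ligand and class pairs measured in both genotypes, 11 were higher after laser in both and 4 lower in both, or 11.2% and 4.08% against 1.02% and 0.696% of all gene and class pairs. They were led by Ccl4 in neutrophil-like cells (12.9-fold in WT and 19.2-fold in Nr4a1-/-) and Ccl3 in the same cells (7.77 and 12.5), a ligand of CCR1. In neutrophil-like cells 19.4% of all genes were higher after laser in WT and 15.5% in Nr4a1-/-. Ccl8 was higher in resident macrophage-like cells (3.00 and 8.74), and Ccl7, a ligand of CCR2, in microglia-like cells (3.81 and 2.78). Ccl2, also a ligand of CCR2, was higher in B-like cells (2.21 and 4.01) and lower in cDC2-like cells (0.473 and 0.430). Ccl3 and Ccl4 were lower in both genotypes in other macrophage-like cells (0.328 and 0.340 for Ccl3). By class, Ccl2, Ccl7, Ccl8 and Ccl12 had their highest mean level in resident macrophage-like cells, and Cxcl16, the ligand of CXCR6, in migratory DC-like cells, which were scarce outside WT laser. Of 14 other chemokine receptors, those best known for 1 lineage led there, Xcr1 in cDC1-like cells (7.81 log2 units above the class mean), Cxcr5 in B-like cells (5.15) and Ccr4 in CD4 T-like cells (3.85), and 0 of 23 pairs were past the rule after laser in both genotypes. Of the genes that carry or dampen the receptors' signal (G proteins, arrestins, receptor kinases and RGS proteins), 3 of 202 pairs were higher and 1 lower in both (1.49% and 0.495%), near the shares over all pairs. Between genotypes, 9 of 108 ligand pairs were lower and 4 higher in both treatments (8.33% and 3.70% against 0.213% and 0.0855% of all pairs), and those lower included Cxcl9, a CXCR3 ligand, in cDC1-like, resident macrophage-like and cDC2-like cells.

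The CX3CR1 tag was highest in the class that led its RNA. The CX3CR1 tag was 72.5 per 1000 tag UMIs in microglia-like cells of the WT control and 60.7 in the Nr4a1-/- control and, after laser, 54.4 in WT and 64.1 in Nr4a1-/-, and at most 13.3 in any other class and library. Spearman's correlation of tag and RNA over the 16 classes was 0.79 (0.712 with the tags scaled by centred log-ratio), a description over classes that share libraries and antibody background. In WT microglia-like cells the tag was lower after laser (ratio 0.751, interval 0.721 to 0.782), while its ratio in the other classes was 1.05 to 2.34. This was not so in Nr4a1-/-, where the microglia-like ratio was 1.06 (0.967 to 1.15) and the other classes ran from 0.0938 in classical monocyte-like to 11.2 in neutrophil-like cells. Other tags shifted in these 2 classes as well. CD192, CD184, CD186 and CD196 had ratios of 0.316, 0.126, 0.178 and 0.187 in classical monocyte-like cells. In neutrophil-like cells these were 3.05, 1.06, 3.18 and 3.23, so the 2 extreme ratios cannot be read as CX3CR1 alone. For the other 4 tags the same correlation was 0.08 (CD192), −0.24 (CD184), 0.27 (CD186) and 0.15 (CD196). By centred log-ratio CD186 reached 0.737, above CX3CR1, and the others stayed at or below 0. None of these 4 was highest in the class that led its RNA. CD192 stood at a mean of 0.419 per 1000 in classical monocyte-like cells, rank 12 of 16. Nr4a1-/- laser lowered that mean, at 0.148 against 0.555 in WT control, 0.507 in WT laser and 0.468 in Nr4a1-/- control. CD196 stood at 4.40 in B-like cells against 6.94 in microglia-like cells. No isotype control tags were among the 87, so the background of a tag cannot be set apart from signal. The CD192 tag showed no rise with Ccr2 RNA in resident macrophage-like cells, with laser over control ratios of 0.630 in WT and 0.474 in Nr4a1-/-. In the same cells CD184, CD186 and CD196 also had ratios below 1, at 0.814, 0.524 and 0.760 in WT. In Nr4a1-/- these were 0.493, 0.719 and 0.448. The CX3CR1 ratios were 1.78 in WT and 0.731 in Nr4a1-/-. CD192 held only 0.354 to 1.10 per 1000 tag UMIs there, so whether CCR2 protein changed cannot be read from it.

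**Figure D5:**
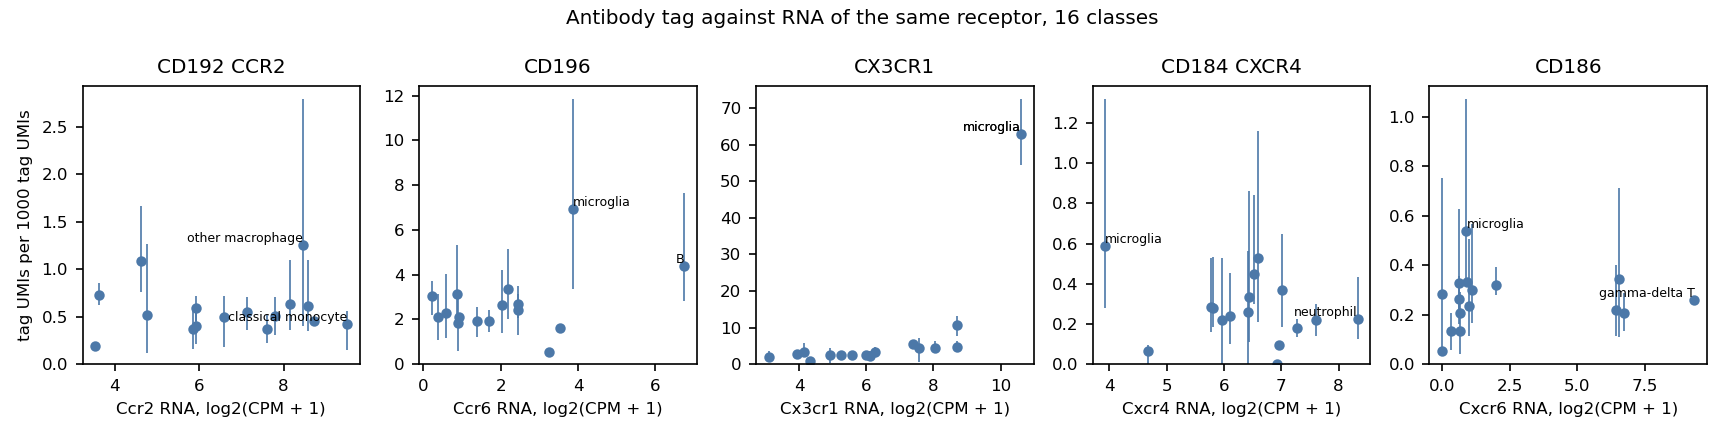
Antibody tag (mean over libraries, UMIs per 1000 tag UMIs, lines from lowest to highest library) against RNA (log2(CPM + 1)) of the same receptor in the 16 classes, 1 panel per tag. For CX3CR1 the microglia-like point stands apart on both axes, and the other 4 panels show no such point at the class with the highest RNA.

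Across the 16 classes, the genes whose mean log2(CPM + 1) was most like each receptor were found by Pearson correlation among 9355 genes. They were Clec4a2 (0.965), Clec5a and Cd33 for Ccr1, Ahnak (0.875), Rab1b and Capn2 for Ccr2, Dph5 (0.88), Rras2 and Slc4a8 for Ccr7, and Pwwp2b (0.893) and Gm5086 for Cx3cr1. For Cxcr2 they were 9830107B12Rik (0.978), Gm20406 and Nlrp12, for Cxcr3 Zdhhc2 (0.921), Sema4f and Tanc1, and for Cxcr4 Abcg1 (0.859), 2310011J03Rik and Vamp4. For Cxcr6 they were Ptpn13 (0.984), Gm39323 and Podnl1, and for Ccr6 Pik3c2b (0.859), Med13 and Cecr2. Among the receptors themselves, Cxcr3 and Cxcr6 were most alike (0.779), followed by Cxcr2 and Cxcr4 (0.558). Classes are not independent samples, and these values only describe how alike the patterns were.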

How the data were processed

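Per the submitters' processing notes, reads were aligned to the mm10 build in Cell Ranger (version 7.0.1). The authors deposited its raw UMI counts for each gene or tag in each cell, and these were taken without change. The study's methods name a 3' v3 kit and the labels v2. Cells outside 200 to 5000 genes, or above 15% mitochondrial UMIs, were dropped, following the study. Cells were gated in steps on 20 marker lists. A cell first took the main class whose score was at least 1.5 times the next, with at least 3 markers detected. Cells in the macrophage class were then split by the same rule among the microglia, resident macrophage and Spp1 macrophage lists. Those that passed on no list formed the other macrophage-like class, which is a remainder. T cells were split by detection of Cd4, of Cd8a or Cd8b1, or of at least 3 gamma-delta markers, with no ratio. Class tests used edgeR 4.0.16 (TMM, robust quasi-likelihood, R 4.3.3) on 54 class and library sums, with gate markers left out. Comparisons with the mean of the other classes added a prior count of 1, because some classes held 0 UMIs, which departs from the planned raw counts. Neighbouring classes, and Spp1 macrophage-like cells against other macrophages, were compared on raw counts. P-values rest on 35 residual degrees of freedom shared by all classes, over libraries of pooled mice that differ in genotype and treatment, and 4 classes were present in only 1 or 2 libraries. Scripts used Python 3.11.15 and scipy 1.17.1 and were tested on simulated data. The named genes were the 9 receptors, the 3 genes most like each, and pathway genes past the rule in both pairs, of which some genes are not reported here. Members, lists and tests were chosen with earlier results of these data known, and the comparison of Spp1 macrophage-like cells with other macrophages after seeing the data.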

Additional observations from a re-analysis of the deposited data

Results flagged for a closer look

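In 3 of the 53 receptor and class pairs measured in both genotypes, the ratio of laser to control lay on opposite sides of 1, with counting intervals that left out 1 in each genotype. With 1 library per group the difference between the genotypes was not tested. Cx3cr1 in CD4 T-like cells had a ratio of 0.5559 in WT and 8.32 in Nr4a1-/-. The WT control level rested on 46 UMIs, 25 of them in 1 cell, and the Nr4a1-/- level on 10 UMIs in control and 16 in laser. Ccr1 in resident macrophage-like cells had a ratio of 1.127 in WT, from 215.7 to 243.0 CPM, and of 0.3588 in Nr4a1-/-, from 379.5 to 136.2 CPM. Ccr1 in classical monocyte-like cells had a ratio of 1.309 in WT (interval 1.06 to 1.62) and of 0.7202 in Nr4a1-/- (0.511 to 0.996), neither of them 2-fold. All 3 Nr4a1-/- ratios use the Nr4a1-/- control library.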

How the results depend on the processing

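No paired analysis was possible because the groups hold 1 library each. The 9 class tests, 1 class per receptor, kept their direction and their call under all 121 alternative values that could be computed. The alternatives included DESeq2, no filter on low counts, each library left out, classes from clusters, a stricter gate, thinning and other cell filters. Their ranges were 2.96 to 5.57 log2 units for Ccr1 in neutrophil-like, 2.59 to 3.95 for Ccr2 in classical monocyte-like, 6.06 to 7.71 for Ccr7 in migratory DC-like and 0.756 to 1.91 for Cxcr4 in Spp1 macrophage-like cells. The upper end for Cxcr4, 1.91, is the comparison with the mean of the 3 other macrophage classes. It is counted among the 121 but asks a different question from the class test. Without the WT laser library, Cxcr4 in Spp1 macrophage-like cells was 0.849 log2 units higher (edgeR adjusted p = 0.0155). DESeq2 and edgeR against the pooled rest, and the fit without WT laser, gave no value for the 2 classes found in 1 library. Those classes, migratory DC-like and gamma-delta T-like, lost none of their cells in the other fits that left out a library. Leaving out a library therefore did not test their Ccr7 and Cxcr6 results. The number of pairs called ran from 61 to 108 around 89.

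Thinning every cell to 2000 UMIs left fewer UMIs per pair. It lowered the pairs called after laser from 32 to 18, those called by genotype from 12 to 6, and those higher after laser in both genotypes from 10 to 3 (Ccr2 in resident macrophage-like and CD8 T-like cells, and Cxcr6 in CD8 T-like cells). Of the 43 called ratios with a finite value, 20 still reached 20 UMIs and 14 of these were still called, with 0 in the other direction. Classes from clusters, which lack a cDC1-like and an other macrophage-like class, gave 22 pairs by genotype, and the cause was not tested. Without thinning, 65 in place of 43 of 144 pairs had a UMI in at least 10% of cells. Under scaling by TMM, Ccr2 and Cxcr3 in unsplit T-like cells were no longer higher in both genotypes, under the stricter gate Ccr1 in microglia-like cells was not, and with classes from clusters Ccr2 in microglia-like cells (WT ratio 1.56) and Cxcr3 in unsplit T-like cells were not. Without an upper limit on detected genes Ccr2 in unsplit T-like cells was not. Intervals cover counting error only, and UMIs of 1 cell are not independent.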

Other observations

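Basophil or mast cell-like cells were too few for the comparisons, with 45 cells over all libraries and fewer than 20 in each. Of these cells, 24.4% held a Ccr1 UMI (exact 95% interval 12.9 to 39.5%), 24.4% a Ccr2 UMI, 22.2% a Cx3cr1 UMI and 9 of the 45 a Cxcr2 UMI (9.58 to 34.6%). They held 14 Cxcr2 UMIs, 1.66% of all those in gated cells, after neutrophil-like and non-classical monocyte-like cells. Plasmacytoid DC-like cells numbered 27, and 48.2% of them held a Ccr2 UMI (28.7 to 68.1%), 40.7% a Cxcr4 UMI and 14.8% a Cxcr3 UMI. In 31 plasma cell-like cells Cxcr4 was found in 22.6%. These shares are not thinned, and the 3 classes differ in depth, with medians of 4020, 9744 and 15020 UMIs per cell.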
